A study of Mus musculus with 9 samples.

Results

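The adrenoceptors are the receptors of the heart for the catecholamines noradrenaline and adrenaline. The transcript levels of 8 adrenoceptor genes were followed through hearts of transgenic and non-transgenic mice. They are the alpha-1 genes Adra1a, Adra1b and Adra1d, the alpha-2 genes Adra2a, Adra2b and Adra2c, and the beta genes Adrb1 and Adrb3. They were found by their gene names among the 41710 gene names of the deposited tables, and the transcripts of each gene were added up in reads and in TPM. TPM, a transcript level that divides reads by transcript length and rescales each library to the same total, can be compared between genes.

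The hearts came from male mice of the FVB/N strain at an age of 8 months, with n = 3 libraries per group. Tg-RKIP mice carry RKIP, the RAF kinase inhibitor protein encoded by Pebp1, as a transgene under the myocardium-specific alpha-MHC promoter, and the submitters describe symptoms of heart failure in them. A second group is labelled Tg-GRK2, for a transgene of the G protein-coupled receptor kinase GRK2, whose promoter is not given in the sources used here. Non-transgenic FVB mice of the same sex and age served as controls. Whole hearts were sequenced, so fewer cells of a type and less RNA per cell cannot be told apart.

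Alpha-1 adrenoceptors couple to Gq/11 proteins and phospholipase C, and in cardiomyocytes they are known for growth and survival signalling. Alpha-2 adrenoceptors couple to Gi/o proteins and are best known as inhibitory receptors on sympathetic nerve endings. The beta-1 receptor is the main Gs-coupled driver of heart rate and contractile force, and the beta-3 receptor is best known from adipocytes, where it stimulates lipolysis and heat production.

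Facts of the libraries bear on every value. Pebp1 stood at 15967 to 16371 TPM in Tg-RKIP libraries, at 316 to 327 TPM in the Tg-GRK2-labelled libraries and at 321 to 330 TPM in FVB libraries. Grk2 had a log2 fold change of 0.05 between the Tg-GRK2-labelled libraries and FVB (adjusted p = 0.354, edgeR), so its counts did not bear out the label, and this group is named by its label throughout. The 9 libraries held 25458108 to 33447654 reads on transcripts. Mitochondrial genes took 11.5 to 11.8% of the reads in Tg-RKIP, 22.4 to 22.9% in the Tg-GRK2-labelled libraries and 22.9 to 23.2% in FVB. In Tg-RKIP against FVB, TMM normalization, the scaling used here, put the median log2 difference over every tested gene at 0.0085, against 0.38 with scaling to library size only and 0.43 on log2(TPM + 0.1). A gene can therefore be lower in TMM-normalized counts and higher in TPM. The 8 cardiomyocyte markers, among them Myh6 and Tnnt2, had a summed level of 52706 to 53839 TPM in Tg-RKIP, 55476 to 57327 TPM in the Tg-GRK2-labelled libraries and 58446 to 58982 TPM in FVB, so cardiomyocyte RNA was abundant in each library. Of 7 airway epithelium markers, 3, among them Scgb1a1 and Bpifa1, had no read in any FVB library, and the sum of all 7 was 0.411 to 0.873 TPM in FVB, 189 to 196 TPM in the Tg-GRK2-labelled libraries and 89.0 to 93.5 TPM in Tg-RKIP. The part of airway RNA in the receptor values was not tested.

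Both leading alpha-1 genes are transcribed in more than 1 form, and the sequences of their starts or ends are shown here because the transcript results below turn on these forms. Adra1b lies on chromosome 11 from 43665433 to 43792037 on the minus strand (GRCm39, as for the other gene positions). Its transcripts start at 2 sites 64878 bases apart, a distal one at 43792037 and a proximal one at 43727159, and each lies near a promoter listed by RefSeq for GRCm38.p6. The 250 bases before each RefSeq start are printed on the strand of the gene. Capitals mark a match to GGGCGG, the GC box, on either strand. TATAAA (the TATA box), TGACGTCA (the cAMP response element) and CACGTG (an E box) were searched on both strands as well and had no match in these windows. Of 32851 promoters of this length, 32.7% held the GC box, 12.4% the TATA box, 1.55% the cAMP response element and 6.02% the E box. No 2 of these motifs share a match in these windows.
Adra1b distal promoter, chr11:43901238-43901487, minus strand: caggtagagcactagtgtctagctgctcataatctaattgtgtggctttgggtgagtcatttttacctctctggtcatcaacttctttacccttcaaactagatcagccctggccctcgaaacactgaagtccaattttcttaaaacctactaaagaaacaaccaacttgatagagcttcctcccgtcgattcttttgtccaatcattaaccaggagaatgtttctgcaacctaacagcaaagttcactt
Adra1b proximal promoter, chr11:43836490-43836739, minus strand: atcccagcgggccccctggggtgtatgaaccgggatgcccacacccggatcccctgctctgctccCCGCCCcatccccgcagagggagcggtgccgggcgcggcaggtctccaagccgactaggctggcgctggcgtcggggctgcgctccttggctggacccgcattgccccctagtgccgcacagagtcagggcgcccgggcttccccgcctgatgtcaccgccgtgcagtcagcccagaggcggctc
The sequences differ in base composition, with 41.6% G and C before the distal start and 72.8% before the proximal start, against a median of 52.4% over all promoters. The annotated transcript starts of GENCODE M21 lay 27 bases from the distal and 157 bases from the proximal RefSeq start.

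Adra1a lies on chromosome 14 from 66872700 to 67008617 on the plus strand (GRCm39), with 5 protein-coding transcripts and 1 that retains an intron. The coding transcripts differ at their 3′ ends, and the spliced and long ends encode different intracellular tails of the receptor. The last 30 shared coding bases are printed in lower case, followed in capitals by the bases of each form up to and including its stop codon, from the reference transcripts of GENCODE M21 (GRCm38).
Adra1a spliced end, 427 codons: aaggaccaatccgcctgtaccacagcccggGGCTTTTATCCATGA
Adra1a long end, 466 codons: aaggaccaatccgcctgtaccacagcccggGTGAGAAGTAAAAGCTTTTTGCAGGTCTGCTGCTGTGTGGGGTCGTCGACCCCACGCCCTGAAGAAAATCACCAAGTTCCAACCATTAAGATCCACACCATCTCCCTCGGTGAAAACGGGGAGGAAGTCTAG
Adra1a short end, 295 codons: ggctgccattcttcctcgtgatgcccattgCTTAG
The spliced and long forms share their first 1269 coding bases and therefore end on the same 30 lower-case bases, whereas the short form shares 883 coding bases with them.

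In FVB hearts, alpha-1 transcripts made up most of the adrenoceptor RNA. Adra1b led with 18.9 ± 0.709 TPM (SD, n = 3), followed by Adra1a with 10.3 ± 0.609 TPM, Adrb1 with 9.09 ± 0.677 TPM and Adra1d with 1.98 ± 0.397 TPM. Adra2b with 0.241 ± 0.0171 TPM, Adra2c with 0.142 ± 0.0390 TPM, Adrb3 with 0.141 ± 0.0416 TPM and Adra2a with 0.0244 ± 0.00789 TPM were far lower. Neighbours in this order did not overlap between libraries, except Adra2c and Adrb3. In Tg-RKIP hearts the order was Adrb1, Adra1b, Adra1a, Adrb3, Adra1d, Adra2b, Adra2c and Adra2a, where Adra2b overlapped with Adra2c and Adra2c with Adra2a. In the Tg-GRK2-labelled hearts the order was Adra1b, Adrb1, Adra1a, Adra1d, Adrb3, Adra2b, Adra2c and Adra2a, and Adra2b overlapped with Adra2c. Neighbouring levels come from the same 3 libraries, so the order is a description without a test.

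**Figure D1:**
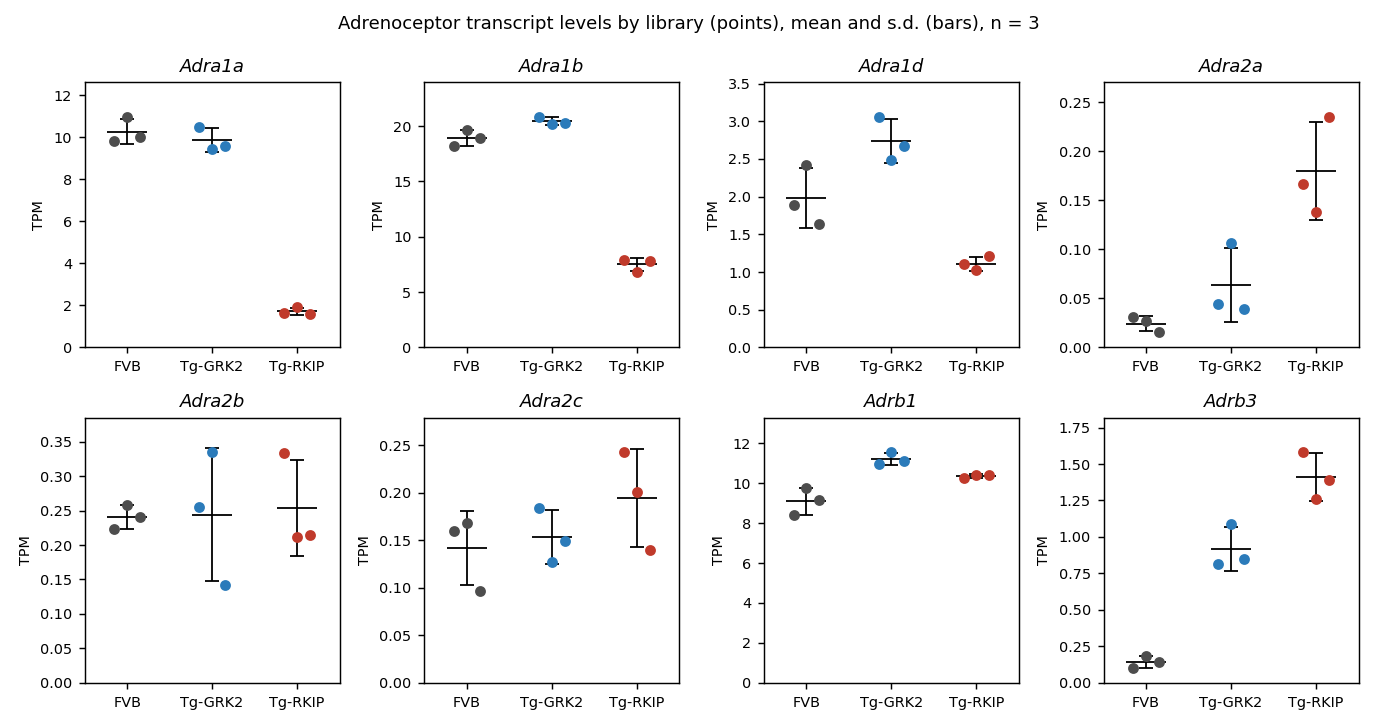
Transcript level in TPM (vertical axes, each from 0) of the 8 adrenoceptor genes in 3 FVB, 3 Tg-GRK2-labelled and 3 Tg-RKIP libraries (points), with mean and s.d. (bars). Adra1a falls from at least 9.84 TPM in the FVB libraries to 1.91 TPM or less in Tg-RKIP, while Adrb3 climbs from 0.182 TPM or less to 1.26 TPM or more.

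Between Tg-RKIP and FVB hearts, 6 of the 8 genes passed the threshold of an adjusted p under 0.05 (edgeR's quasi-likelihood test, Benjamini-Hochberg adjustment over 15504 genes). Adra1a, Adra1b, Adra1d and Adrb1 were lower and Adra2a and Adrb3 higher, in TMM-normalized counts. The expression filter kept Adra2a only through the Tg-RKIP libraries, where it was high, so its place in these counts is not independent of the filter. Of all tested genes, 73.9% passed, 36.8% higher and 37.1% lower, so a count of 6 in 8 lies near the background. With scaling to library size only, 3 receptors were higher and 3 lower, and of all genes 9710 were higher and 2649 lower. By size, 3 of 8 receptors fell by at least 1 on the log2 scale, against 6.12% of all genes, and 2 of 8 rose by at least 1, against 10.2%. The TMM-normalized counts of the groups did not overlap in 6 of 8 receptors, against 75.7% of all genes. The median log2 fold change of the receptors was -0.30, beside 0.0085 for all genes. Between the Tg-GRK2-labelled libraries and FVB, 4 of 8 passed, 3 higher and 1 lower, against 24.5% of all genes, or 12.2% in each direction, and the receptors' median was 0.19. There, 1 of 8 rose by at least 1 on the log2 scale, against 0.929% of all genes, and 0 of 8 fell by as much, against 0.651%. Their counts did not overlap in 5 of 8 receptors, against 37.1% of all genes. Between Tg-RKIP and the Tg-GRK2-labelled libraries, 6 of 8 passed, 2 higher and 4 lower, against 74.5% of all genes, or 37.9% higher and 36.6% lower, with a median of -0.39. There, 3 fell by at least 1 on the log2 scale, against 6.91% of all genes, 1 rose by as much, against 9.89%, and the counts of 6 did not overlap, against 76.4%. The comparisons share libraries and are therefore given side by side for each receptor.

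**Figure D2:**
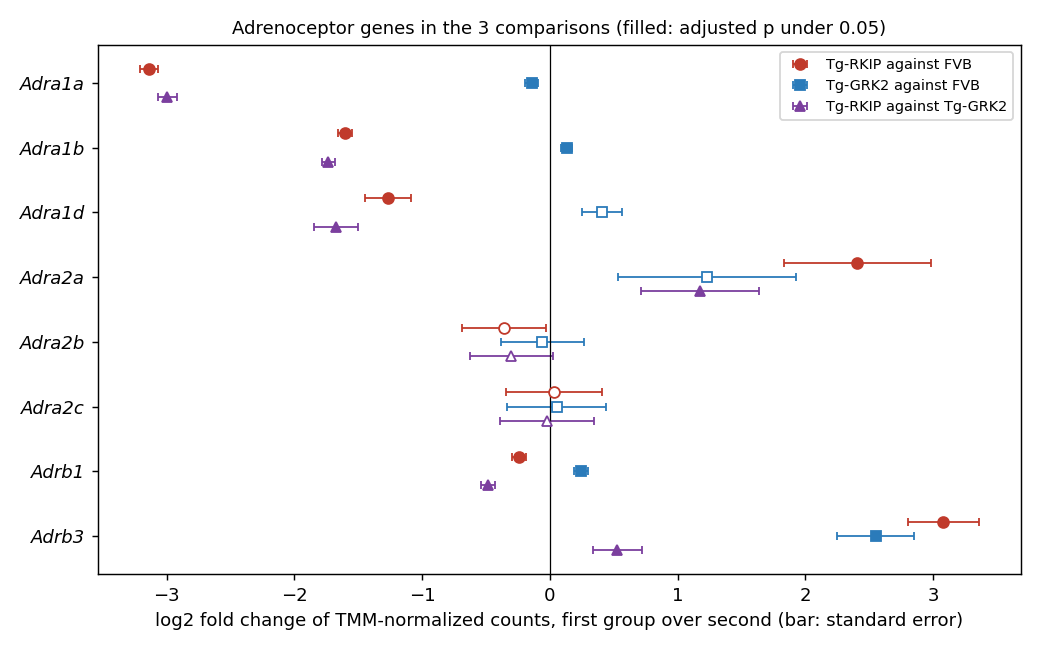
Log2 fold change of TMM-normalized counts (horizontal axis) with its standard error (bars) for each receptor in Tg-RKIP against FVB, the Tg-GRK2-labelled libraries against FVB, and Tg-RKIP against those labelled Tg-GRK2, with filled symbols for an adjusted p under 0.05. Adra1a lies at -3.14, Adra1b at -1.60 and Adra1d at -1.27 in Tg-RKIP against FVB, Adrb3 lies at 3.08, and Adrb1 lies at -0.24, or at 0.13 with scaling to library size only.

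Adra1a, the alpha-1A receptor, showed the strongest fall of the 8 genes. Its reads were 698, 861 and 713 in the FVB libraries, 730, 650 and 817 in those labelled Tg-GRK2, and 104, 142 and 87 in Tg-RKIP. In TMM-normalized counts this was 847 ± 37.1 in FVB, 767 ± 37.6 in the Tg-GRK2-labelled libraries and 95.3 ± 10.3 in Tg-RKIP (SD, n = 3 each). No Tg-RKIP library came near a library of the other groups. The level in Tg-RKIP was 11.4% of that in FVB (log2 fold change -3.14, standard error 0.07, adjusted p = 7.94e-20, edgeR), or 16.7% in TPM, and 12.5% of that in the Tg-GRK2-labelled libraries (log2 fold change -3.00, standard error 0.07, adjusted p = 2.06e-19). Of the 15504 tested genes, 37 had a lower log2 fold change than Adra1a in Tg-RKIP against FVB. The Tg-GRK2-labelled libraries differed little from FVB, at -0.14 ± 0.05 (standard error) on the log2 scale (adjusted p = 0.0463). Of 12 alternatives that leave out no single library, 7 lost that call, among them DESeq2 (adjusted p = 0.165). On the most abundant transcript the value turned to 0.03. The call was also lost when Tg-RKIP replicate 1, any of the 3 libraries labelled Tg-GRK2, or FVB replicate 2 or 3 was left out (adjusted p of 0.0512 to 0.22, edgeR).

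Each coding form of Adra1a was lower in Tg-RKIP than in FVB. The spliced form stood at 4.79, 5.44 and 5.48 TPM in FVB, 5.61, 5.30 and 5.62 TPM in the Tg-GRK2-labelled libraries, and 0.914, 0.584 and 0.396 TPM in Tg-RKIP. The long form, summed over 3 transcripts, stood at 4.44, 4.52 and 3.83 TPM in FVB, 3.55, 3.05 and 3.12 TPM in the Tg-GRK2-labelled libraries, and 0.446, 0.837 and 0.672 TPM in Tg-RKIP. The short form stood at 0.589, 0.993 and 0.715 TPM in FVB, 1.29, 1.10 and 0.858 TPM in the Tg-GRK2-labelled libraries, and 0.281, 0.494 and 0.465 TPM in Tg-RKIP. The Tg-RKIP mean was thus 0.121 times that of FVB for the spliced, 0.153 times for the long and 0.540 times for the short form. Tg-RKIP and FVB libraries did not overlap in any of these forms (two-sided exact permutation test, p = 0.1 each, the smallest possible). As a share of Adra1a TPM, the short form was 7.39% ± 1.55 in FVB, 11.0% ± 1.77 in the Tg-GRK2-labelled libraries and 24.0% ± 6.17 in Tg-RKIP (SD, n = 3 each), and Tg-RKIP overlapped with neither group (exact permutation test, two-sided p = 0.1 each). The long form was lower in the Tg-GRK2-labelled libraries than in FVB without overlap, whereas the spliced form overlapped between them (exact permutation test, two-sided p = 0.1 and 0.4). The division of the 50-base reads among transcripts of a gene is not given in the sources used here, and the Tg-RKIP values of a form rest on 11 to 65 reads per library.

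Adra1b, the alpha-1B receptor, was the most abundant adrenoceptor in FVB and was also much lower in Tg-RKIP. Its reads were 772, 950 and 763 in FVB, 967, 905 and 1032 in the Tg-GRK2-labelled libraries, and 340, 401 and 314 in Tg-RKIP. The TPM were 18.2, 19.6 and 18.9 in FVB, 20.8, 20.2 and 20.3 in the Tg-GRK2-labelled libraries, and 7.86, 6.81 and 7.80 in Tg-RKIP, and the 3 groups did not overlap. The normalized level in Tg-RKIP was 32.9% of that in FVB (log2 fold change -1.60, standard error 0.05, adjusted p = 3.45e-17, edgeR) and 30.0% of that in the Tg-GRK2-labelled libraries (log2 fold change -1.74, standard error 0.05, adjusted p = 4.90e-18). On the most abundant transcript of Adra1b, these values were -2.43 and -2.25. The libraries labelled Tg-GRK2 were slightly higher than FVB, at 0.13 ± 0.04 (standard error) on the log2 scale (adjusted p = 0.0340). Of 12 alternatives that leave out no single library, 4 lost the latter call, among them DESeq2 (adjusted p = 0.0668). On the most abundant transcript the value turned to -0.18. The call was also lost without FVB replicate 1 (adjusted p = 0.134) or 3 (adjusted p = 0.119), or without Tg-GRK2 replicate 1 (adjusted p = 0.149) or 2 (adjusted p = 0.063).

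The transcript forms of Adra1b differed in how far Tg-RKIP lay below FVB. The form with reads from the distal start is 1764 bases long and ends at 43666850, and the proximal forms are 3047 bases long and end at 43665433, so a difference between starts cannot be told apart from one between 3′ ends. A further annotated distal form, which ends where the proximal ones do, had 0 reads in each library. The transcript from the distal start had 322, 392 and 373 reads in FVB, 323, 295 and 403 in the Tg-GRK2-labelled libraries, and 84, 66 and 110 in Tg-RKIP. The transcripts from the proximal start, a pair with the same exons, had 450, 558 and 390 reads in FVB, 644, 610 and 629 in the Tg-GRK2-labelled libraries, and 256, 335 and 204 in Tg-RKIP. Both forms were lower in every Tg-RKIP library than in any FVB library. In TPM, the Tg-RKIP mean was 0.256 times that of FVB for the distal form and 0.586 times for the proximal forms. The distal form gave 57.5% ± 4.19 of Adra1b TPM in FVB, 48.2% ± 3.82 in the Tg-GRK2-labelled libraries and 36.6% ± 11.4 in Tg-RKIP (SD, n = 3 each). This share did not overlap between FVB and either transgenic group (exact permutation test, two-sided p = 0.1 each), but it overlapped between Tg-RKIP and the Tg-GRK2-labelled libraries (two-sided p = 0.3). The Tg-RKIP libraries varied widely in it, at 36.2, 25.4 and 48.2%.

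**Figure D3:**
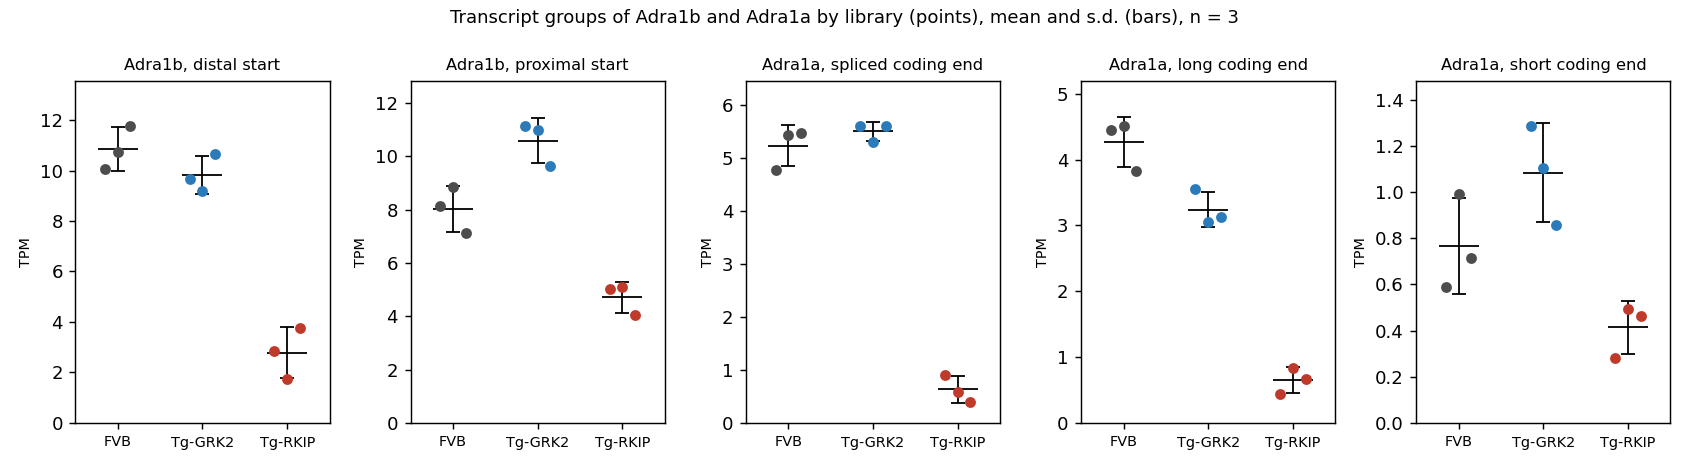
Transcript level in TPM (vertical axes, each from 0) of the distal-start and proximal-start transcripts of Adra1b and of the spliced, long and short coding forms of Adra1a, per library (points) with mean and s.d. (bars) in FVB, Tg-GRK2-labelled and Tg-RKIP libraries. Each form is lowest in Tg-RKIP, with means of 2.78 TPM for the distal-start and 4.71 TPM for the proximal-start transcripts of Adra1b.

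Adra1d, the alpha-1D receptor known from vascular smooth muscle, lies on chromosome 2 from 131387770 to 131404203 on the minus strand and has 1 transcript. Its reads were 65, 95 and 56 in FVB, 110, 86 and 109 in the Tg-GRK2-labelled libraries, and 35, 42 and 38 in Tg-RKIP. The Tg-RKIP libraries lay below all others, and FVB and the Tg-GRK2-labelled libraries overlapped in normalized counts, at 66.4 to 97.6 and 95.7 to 119. In TPM these groups did not overlap, at 1.64 to 2.42 in FVB and 2.48 to 3.06 in the Tg-GRK2-labelled libraries. The log2 fold change was -1.27 in Tg-RKIP against FVB (standard error 0.18, adjusted p = 2.19e-06, edgeR) and -1.68 in Tg-RKIP against the Tg-GRK2-labelled libraries (standard error 0.17, adjusted p = 1.47e-08). The libraries labelled Tg-GRK2 against FVB gave 0.41 (95% interval 0.08 to 0.73, adjusted p = 0.0620), which did not pass, but passed without FVB replicate 2 (0.59, adjusted p = 0.0166). The 8 smooth muscle and pericyte markers did not fall together in Tg-RKIP: 4 were higher and 4 lower than in FVB with TMM. Of all tested genes, 36.8% were higher and 37.1% lower. With scaling to library size, 4 of the markers were higher and 3 lower. The log2 fold changes with TMM were 1.21 for Acta2, the smooth muscle actin, and -1.53 for Abcc9, a potassium channel subunit.

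All 8 cardiomyocyte markers were lower in Tg-RKIP than in FVB in TMM-normalized counts, against 37.1% of all genes. Their median log2 fold change was -0.65, and with scaling to library size 6 were lower and 2 higher. In the Tg-GRK2-labelled libraries, 6 were lower and 2 higher than in FVB, with a median of -0.09. Of all tested genes, 12.2% were lower there and 12.2% higher. In Tg-RKIP the markers ran from -2.07 for Ryr2 and -1.35 for Myh6 to -0.10 for Tnnt2. Adra1b (-1.60) lay below every marker except Ryr2, and Adra1d (-1.27) lay below every marker except Ryr2 and Myh6. Adra1a (-3.14) lay below all 8 markers. The ratio of Adra1a to Adrb1 within a library does not depend on the scaling. It was 1.13 ± 0.0375 in FVB, 0.880 ± 0.0704 in the Tg-GRK2-labelled libraries and 0.166 ± 0.0157 in Tg-RKIP (SD, n = 3 each), with no overlap between any of the groups (exact permutation test, two-sided p = 0.1 each). The ratio of Adra1b to Adrb1 was 2.08 ± 0.0783, 1.82 ± 0.0750 and 0.724 ± 0.0615 in the same order, again without overlap (exact test, two-sided p = 0.1 each). The ratio of Adra1d to Adrb1 was 0.218 ± 0.0347, 0.245 ± 0.0318 and 0.107 ± 0.00912, and here FVB and the Tg-GRK2-labelled libraries overlapped (exact test, two-sided p = 0.5), while Tg-RKIP lay below both (p = 0.1 each).

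Adrb1, the beta-1 receptor, lies on chromosome 19 from 56710631 to 56721545 on the plus strand. Its reads were 450, 590 and 484 in FVB, 609, 621 and 698 in the Tg-GRK2-labelled libraries, and 502, 656 and 508 in Tg-RKIP. The TPM were 8.39, 9.75 and 9.14 in FVB, 11.0, 11.5 and 11.1 in the Tg-GRK2-labelled libraries, and 10.3, 10.4 and 10.4 in Tg-RKIP, so that Tg-RKIP lay above FVB in TPM without overlap. The TMM-normalized counts were 568 ± 42.2 in FVB and 481 ± 9.08 in Tg-RKIP, where Tg-RKIP lay below FVB without overlap. The direction for Tg-RKIP against FVB thus depended on the scaling: -0.24 on the log2 scale with TMM (standard error 0.06, adjusted p = 5.18e-04, edgeR), but 0.13 with scaling to library size (adjusted p = 0.0314) and 0.19 by limma on log2(TPM + 0.1) (adjusted p = 0.0120). Each of these lay below the median of all genes on its own scale. Against FVB, the Tg-GRK2-labelled libraries were higher, at 0.24 ± 0.05 (standard error) on the log2 scale (adjusted p = 0.00162), and Tg-RKIP was lower than these by 0.49 (standard error 0.05, adjusted p = 3.28e-08). The latter difference was -0.11 by limma on log2(TPM + 0.1) and did not pass there (adjusted p = 0.0962).

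Adrb3, the beta-3 receptor, rose in both transgenic groups from a low level in FVB. The gene lies on chromosome 8 from 27715804 to 27740644 on the minus strand. Its reads were 5, 9 and 4 in FVB, 43, 35 and 36 in the Tg-GRK2-labelled libraries, and 63, 75 and 61 in Tg-RKIP, and the groups did not overlap. In TPM these were 0.0985, 0.182 and 0.143 in FVB, 0.812, 1.09 and 0.851 in the Tg-GRK2-labelled libraries, and 1.58, 1.26 and 1.39 in Tg-RKIP. The normalized level was 8.44-fold that of FVB in Tg-RKIP (log2 fold change 3.08, standard error 0.28, adjusted p = 1.80e-09, edgeR) and 5.86-fold in the Tg-GRK2-labelled libraries (log2 fold change 2.55, standard error 0.30, adjusted p = 1.44e-06). Of all tested genes, 0.993% had a higher log2 fold change in the first comparison and 0.355% in the second. Tg-RKIP exceeded the Tg-GRK2-labelled libraries by 0.53 on the log2 scale (standard error 0.19, adjusted p = 0.0184), which did not pass with DESeq2 (adjusted p = 0.0779), without Tg-RKIP replicate 1 (adjusted p = 0.0505) or without Tg-GRK2 replicate 3 (adjusted p = 0.0874).

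The transcripts of Adrb3 were not divided alike among the libraries. In Tg-RKIP the transcript with 4 exons took 60, 73 and 54 reads and that with 3 exons 1, 2 and 7. The former took 43, 13 and 6 reads in the Tg-GRK2-labelled libraries, and the latter 0, 20 and 30. The gene sum was steady where its transcripts were not, and on the most abundant transcript alone the Tg-GRK2-labelled libraries against FVB gave 2.42 without passing (adjusted p = 0.14).

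Some adipocyte markers, but not all, moved with Adrb3. Ucp1, the uncoupling protein of brown fat, stood at 0.909, 1.36 and 1.26 TPM in FVB, 6.61, 6.17 and 5.25 TPM in the Tg-GRK2-labelled libraries, and 14.0, 13.2 and 13.1 TPM in Tg-RKIP. Adipoq, which encodes the adipocyte hormone adiponectin, stood at 2.81, 2.92 and 3.38 TPM in FVB, 5.80, 6.58 and 6.63 TPM in the Tg-GRK2-labelled libraries, and 26.8, 29.0 and 28.8 TPM in Tg-RKIP. Both took the group order of Adrb3, without overlap between groups. All 9 white adipocyte markers were higher in Tg-RKIP than in FVB, against 36.8% of all genes. Their median log2 fold change was 2.47, and each had reads in every group. Of the 9, 5 were higher and 1 was lower in the Tg-GRK2-labelled libraries, against 12.2% of all genes each way. Their median was 0.95 there. The lower one was Fabp4, named after its values were seen, a fatty acid carrier that capillary endothelium also expresses and that took most of the summed level. Their summed level was 623 to 650 TPM in FVB, 543 to 576 TPM in the Tg-GRK2-labelled libraries and 1057 to 1079 TPM in Tg-RKIP. Of 3 tested brown adipocyte markers, Ucp1 was higher in both comparisons, while Cox8b and Ppargc1a, genes of mitochondrial function that muscle also expresses, were lower, although Cox8b stood at 0.0069 with scaling to library size in Tg-RKIP against FVB. Their part in the Adrb3 values was not tested.

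**Figure D4:**
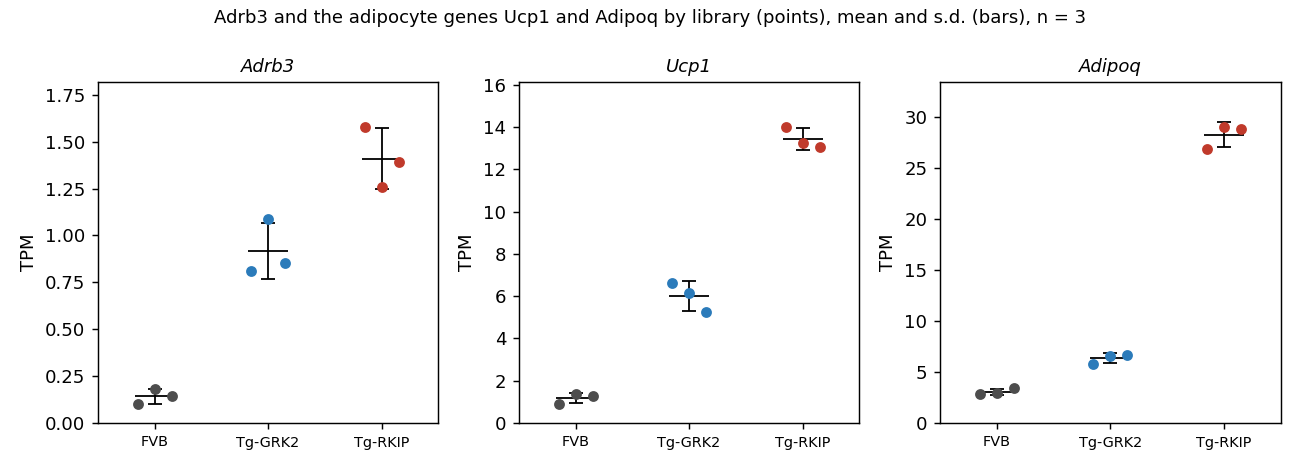
Transcript level in TPM (vertical axes, each from 0) of Adrb3 and of the adipocyte genes Ucp1 and Adipoq per library (points) with mean and s.d. (bars) in FVB, Tg-GRK2-labelled and Tg-RKIP libraries. In each panel FVB is lowest and Tg-RKIP highest, and Adrb3 averages 0.141, 0.917 and 1.41 TPM from left to right.

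The alpha-2 genes had 24 reads or fewer in each library. Adra2a, the alpha-2A receptor on chromosome 19 from 54032582 to 54037413, had 2, 2 and 1 reads in FVB, 3, 7 and 3 in the Tg-GRK2-labelled libraries, and 10, 12 and 14 in Tg-RKIP. The Tg-RKIP libraries lay above all others. The ratio of its summed reads in Tg-RKIP over FVB, scaled by the TMM library sizes, was 5.57 (95% exact interval for counting error 2.18 to 18.2). The fit gave an adjusted p of 7.53e-04 (edgeR), and its fold depends on the prior count at these levels. Only the Tg-RKIP libraries, where Adra2a was high, carried it past the expression filter, so its calls are not independent of that filter. The call was lost by limma on log2(TPM + 1), at 0.20 on that scale (adjusted p = 0.0509). Against the Tg-GRK2-labelled libraries the ratio was 2.29 (95% exact interval 1.19 to 4.70, adjusted p = 0.0272), a call that DESeq2 did not give (adjusted p = 0.147) and that was lost without Tg-RKIP replicate 3 (adjusted p = 0.105), Tg-GRK2 replicate 1 (adjusted p = 0.112) or Tg-GRK2 replicate 3 (adjusted p = 0.134). The libraries labelled Tg-GRK2 over FVB gave a ratio of 2.43 (0.814 to 8.72) and did not pass.

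Adra2b, the alpha-2B receptor on chromosome 2 from 127205128 to 127209141, had 16, 21 and 17 reads in FVB, 19, 24 and 12 in the Tg-GRK2-labelled libraries, and 22, 18 and 14 in Tg-RKIP. Adra2c, the alpha-2C receptor on chromosome 5 from 35435663 to 35439107, had 10, 12 and 6 reads in FVB, 12, 8 and 11 in the Tg-GRK2-labelled libraries, and 14, 15 and 8 in Tg-RKIP. The groups overlapped in both genes and neither passed in any comparison. For Tg-RKIP against FVB the 95% intervals of the log2 fold change ran from -1.04 to 0.32 for Adra2b and from -0.75 to 0.81 for Adra2c, and differences inside these intervals were not detectable at this depth.

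In Tg-RKIP, beta transcripts made up a larger and alpha-1 transcripts a smaller part of the adrenoceptor RNA than in the other groups. The 8 genes together had 40.8 ± 2.34 TPM in FVB, 45.6 ± 0.940 TPM in the Tg-GRK2-labelled libraries and 22.7 ± 0.645 TPM in Tg-RKIP (SD, n = 3 each). Of this sum, the alpha-1 genes held 77.05, 76.07 and 76.05% in FVB, 73.7, 70.9 and 72.6% in the Tg-GRK2-labelled libraries, and 45.7, 44.3 and 46.2% in Tg-RKIP. Taken on the most abundant transcript of each gene, the mean shares were 65.47% in FVB, 60.1% in the Tg-GRK2-labelled libraries and 27.01% in Tg-RKIP. Adrb1 held 22.3% ± 0.571 in FVB, 24.6% ± 0.988 in the Tg-GRK2-labelled libraries and 45.6% ± 1.64 in Tg-RKIP. Adrb3 held 0.343% ± 0.0833, 2.01% ± 0.345 and 6.20% ± 0.561 in the same order, and the alpha-2 genes 0.997% ± 0.103, 1.01% ± 0.261 and 2.76% ± 0.387. The alpha-1 share did not overlap between any of the groups, and neither did those of Adrb1 and Adrb3 (two-sided exact permutation test, p = 0.1 each, the smallest possible). The alpha-2 share of FVB overlapped with that of the Tg-GRK2-labelled libraries (exact test, two-sided p = 1). A share falls or rises with the other genes in the sum, and the sum covers these 8 genes.

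**Figure D5:**
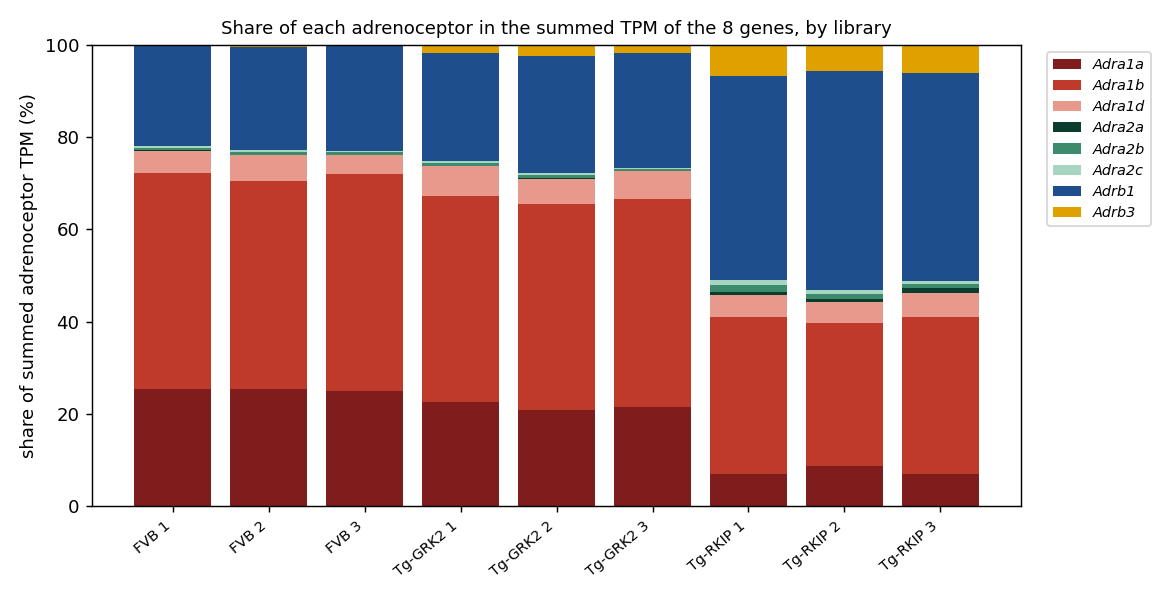
Share of each of the 8 genes in their summed TPM, in percent (vertical axis), stacked for each of the 9 libraries (horizontal axis). The alpha-1 genes (reds) fill 76.05% or more of each FVB bar and 46.2% or less of each Tg-RKIP bar, and Adrb1 (blue) fills the larger part of the rest.

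The pathway around the receptors was followed by lists of its members. Their counts stand against all 15504 tested genes, of which 36.8% were higher and 37.1% lower in Tg-RKIP with FVB as the reference, and 12.2% higher and 12.2% lower in the Tg-GRK2-labelled libraries (edgeR). Scaling to library size put 9710 of these above FVB and 2649 below it in Tg-RKIP. Of 8 tested genes of catecholamine supply, 3 were higher and 4 lower for Tg-RKIP against FVB, and 2 higher and 1 lower in the Tg-GRK2-labelled libraries. Maoa, which degrades catecholamines, was higher in Tg-RKIP (log2 fold change 1.23), as was Pnmt, which makes adrenaline (1.30, at 22 to 31 reads per Tg-RKIP library). Slc22a3, an extraneuronal catecholamine transporter (-1.38), and Ddc, an enzyme of catecholamine synthesis (-1.35), were lower. Of 4 tested sympathetic neuron markers, 1 was higher and 1 lower for Tg-RKIP against FVB, and 2 were higher in the Tg-GRK2-labelled libraries. Npy, a neuropeptide of sympathetic nerves, was higher (log2 fold change 1.54) and Dbh, which makes noradrenaline, lower (-0.61) in Tg-RKIP. In the Tg-GRK2-labelled libraries, Dbh (0.42) was higher. So was Phox2a, a factor of autonomic neurons (1.11, at 6 to 11 reads per FVB library). The defining genes of sympathetic neurons, Th and Slc6a2, had 1 to 11 and 1 to 9 reads per library and were not tested.

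Of the 10 tested G-protein alpha subunits, 7 were higher and 2 lower for Tg-RKIP against FVB, against 36.8% and 37.1% of all genes. In the Tg-GRK2-labelled libraries, 1 was higher and 2 were lower. The Gi genes Gnai2 (log2 fold change 0.72) and Gnai1 (0.68) were higher in Tg-RKIP. The related Gnaz was higher too (0.76, at 8 to 19 reads per FVB library), and Gna12, of the G12/13 class, was lower (-0.73). With scaling to library size, 9 of the 10 were higher and 1 lower. Of 13 adenylyl cyclase and phospholipase C genes, 4 were higher and 7 lower for Tg-RKIP against FVB, but 6 higher and 4 lower with scaling to library size. The cyclases Adcy9 (-2.02), Adcy8 (-2.04, at 2 to 8 reads per Tg-RKIP library) and Adcy1 (-0.79) were lower. Adcy2 was higher (1.31, at a mean of 0.301 TPM in Tg-RKIP). The Tg-GRK2-labelled libraries gave 2 of these 13 as higher and 1 as lower.

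Of 7 tested receptor kinases and arrestins, which switch off active receptors, 4 were higher and 1 lower for Tg-RKIP against FVB, but 6 higher and 1 lower with scaling to library size. Grk2 was at 0.02 with TMM and at 0.40 with that scaling. Grk5 (log2 fold change 1.06) and the arrestin gene Arrb2 (0.71) were higher, as was Grk4 (0.42), and Grk3 was lower (-0.80). Arrb1, at 0.13, was the 1 gene called in the Tg-GRK2-labelled libraries. Of 15 beta-adrenergic effector targets, 12 were lower and 2 higher in Tg-RKIP than in FVB, against 37.1% and 36.8% of all genes. Their median log2 fold change was -0.41. With scaling to library size, 7 of the 15 were lower and 5 higher. The calcium-handling genes Ryr2 (-2.07), Pln (-1.34) and Atp2a2 (-1.33) and the phosphodiesterase gene Pde4d (-1.33) were lower under both scalings. In the Tg-GRK2-labelled libraries, 5 of the 15 were higher and 3 lower, with 0.38 for Ryr2 and 0.12 for Atp2a2.

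Markers of other cell types moved with the groups as well. All 6 fibroblast markers, led by Col1a1 (log2 fold change 2.55), and all 6 macrophage markers were higher in Tg-RKIP than in FVB. Of 6 endothelial markers, 4 were higher, with 0.99 for Vwf, and 2 lower, with -0.83 for Kdr. Of all tested genes, 36.8% were higher and 37.1% lower in this comparison. In the Tg-GRK2-labelled libraries against FVB, 4 of 6 fibroblast and 3 of 6 macrophage markers were higher and none lower. Of the 6 endothelial markers there, 2 were higher, with 0.19 for Kdr, and 2 lower, with -0.15 for Egfl7. Of all tested genes there, 12.2% were higher and 12.2% lower. The sums of the fibroblast markers were 891 to 916 TPM in FVB, 965 to 979 TPM in the Tg-GRK2-labelled libraries and 2044 to 2052 TPM in Tg-RKIP. Their part in the receptor values was not tested.

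The genes most like each receptor over the 9 libraries were found by Pearson's r of log2 TMM-normalized counts scaled to library size, as a description without a test. Libraries of a group lie close together, so r mostly reflects the 3 group levels. Adra1a was most like Slc25a34 (r = 0.9994), Lmo7 and Vwa8, and Adra1b most like Pgm5 (r = 0.9995), Ppp6r2 and Zfp609. Adra1d was most like Adam17 (r = 0.991), Hdac5 and Rxra. Adrb1 was most like Ern1 (r = 0.985), Glrx5 and Pkm, and Adrb3 most like Serpinh1 (r = 0.990), Rian and Ucp1 (r = 0.984). The alpha-2 genes, at few reads, gave Usp21, Nudt18 and Zdhhc18 for Adra2a (r of 0.959 to 0.968), Setdb1, Hace1 and Wnk4 for Adra2b (0.850 to 0.908), and Nr2f1, Pskh1 and Zfp384 for Adra2c (0.876 to 0.943).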

How the data were processed

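Hearts of 9 mice in 3 groups of n = 3 were profiled by fragmented, random-primed mRNA and single 50-base reads. The authors deposited read counts per transcript, not normalized, and TPM for 127558 transcripts, and these TPM equal those recomputed from counts and transcript lengths to within 5.5e-06. The build GRCm39 is named in the submitters' processing notes. The aligner, the counting program and the division of shared reads are not given in the sources used here. RefSeq promoters and GENCODE M21 transcripts (GRCm38) gave the sequences, and no coordinate was converted.

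Counts and TPM were summed by gene name. The test on counts was edgeR 4.0.16 under R 4.3.3 (TMM, filterByExpr, glmQLFit and glmQLFTest, 1 mean per group over all 9 libraries), with Benjamini-Hochberg adjustment across the 15504 genes kept. The standard error of an edgeR log2 fold change was its absolute value divided by the square root of the test's F statistic. The 95% intervals of log2 fold changes were built from these standard errors. Alternatives used DESeq2 1.42.0 and limma 3.58.1. The 95% intervals for ratios of counts and the sampling noise cover counting error only. Shares were compared by exact two-sided permutation tests, which cannot go below 0.1. Alternatives changed the scaling, filter, test, unit, transcript choice and libraries used.

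The members, gene lists and tests were chosen with earlier results of these data known. Named were the 8 receptors, at most 4 passing genes of largest change per list, and the 3 genes most like each receptor among those with a mean of at least 100 counts. Predicted genes and RIKEN clones were left out of the latter. Within groups, the squared differences of libraries were 1.37 to 1.56 times those of sampling noise. The common biological coefficient of variation, edgeR's estimate of spread beyond counting error, was 2.86%. The adjusted p-values of edgeR rest on this small spread between libraries. Some genes of the lists are not reported here.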

Additional observations from a re-analysis of the deposited data

Results flagged for a closer look

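Adra1b and Adrb1 were singled out because their differences from FVB ran in opposite directions in the transgenic groups and the direct comparison of these groups passed the threshold. Adra1b was lower in Tg-RKIP than in FVB by 1.60 on the log2 scale and higher in the Tg-GRK2-labelled libraries by 0.13, and the direct log2 fold change of Tg-RKIP against the Tg-GRK2-labelled libraries was -1.74 (adjusted p = 4.90e-18, edgeR). The 0.13 of Adra1b turned to -0.182 on the most abundant transcript. Its call was lost in 4 of 12 alternatives that leave out no single library, among them DESeq2 (adjusted p = 0.0668). It was also lost without FVB replicate 1 or 3 or Tg-GRK2 replicate 1 or 2, so the opposite directions of Adra1b do not hold for each alternative. Adrb1 stood at -0.24 and 0.24 against FVB, and at -0.49 in the direct comparison (adjusted p = 3.28e-08, edgeR). The -0.24 of Adrb1 turned to 0.13 with scaling to library size only, so its opposite directions hold with TMM and not with that scaling.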

How the results depend on the processing

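In Tg-RKIP against FVB, 6 receptors passed, and 5 or 6 passed under each alternative run. In the Tg-GRK2-labelled libraries against FVB, 4 passed, but 2 passed with DESeq2, with limma on log2(TPM + 0.1) and with limma on log2(TPM + 1), and 1 passed on the most abundant transcript and in a test against a fold change of 1.5, where 155 of all genes passed instead of 3793. Leaving out 1 library at a time, 2 to 4 passed, and 2 passed without Tg-GRK2 replicate 1, Tg-GRK2 replicate 2 or FVB replicate 3. In Tg-RKIP against the Tg-GRK2-labelled libraries, 6 passed, 3 in the test against a fold change of 1.5, and 4 to 6 with each library left out. That test asks for a larger change and passed 3665 and 3867 of all genes in the comparisons of Tg-RKIP with FVB and with the Tg-GRK2-labelled libraries, in place of 11460 and 11551. On the most abundant transcript, 1665 of all genes passed in the Tg-GRK2-labelled libraries against FVB.

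The alpha-1 share of Tg-RKIP was 42.99% in reads and 27.01% on the most abundant transcript, that of the Tg-GRK2-labelled libraries was 60.1% on the most abundant transcript, and that of FVB was 75.35% in reads and 65.47% on the most abundant transcript. Reads are not divided by length, and leaving transcripts out lowers the genes with several.

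For Tg-RKIP against FVB, Adra1a moved from -3.14 to -2.05, Adra1d from -1.27 to -0.492 and Adrb3 from 3.08 to 1.08 on log2(TPM + 1), a scale that understates changes of low genes.

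Directions turned as follows, with the cause not tested. In Tg-RKIP against FVB, Adrb1 was 0.134 with scaling to library size, 0.189 on log2(TPM + 0.1) and 0.172 on log2(TPM + 1), and Adra2b was 0.012, 0.0354 and 0.0131 in the same order. Adra2c there was -0.00309 on the most abundant transcript and ran from -0.171 to 0.198 over fits that leave out 1 library. In the Tg-GRK2-labelled libraries against FVB, Adra1a was 0.0343 and Adra1b -0.182 on the most abundant transcript. Adra2b there was 0.000647 on log2(TPM + 1) and ran from -0.34 to 0.229, and Adra2c from -0.144 to 0.205, when 1 library was omitted. In Tg-RKIP against the Tg-GRK2-labelled libraries, Adra2b was 0.0584, 0.0623 and 0.0124 and Adra2c 0.338, 0.209 and 0.0502 with scaling to library size, on log2(TPM + 0.1) and on log2(TPM + 1), and Adra2c ran from -0.185 to 0.144 with each library left out. Over all receptors, comparisons and alternatives, 431 values kept their direction and side of the threshold, 41 lost their call, 1 gained it and 23 turned. Adra2a was not tested where its reads did not pass the filter, as on the most abundant transcript and with mitochondrial genes left out of the scaling.

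Between groups, deviations of same-numbered libraries correlated at -0.0146 to 0.0544, and those of differently numbered libraries at -0.0525 to 0.0256. Of 9 libraries, 4 correlated best with their own number in both other groups. These values do not exclude a weak pairing by replicate number. With the replicate number as a block, 6, 3 and 6 receptors passed in the 3 comparisons in the order given here, and 11401, 3660 and 11491 of all genes.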

Other observations

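Other G-protein coupled receptors of the heart did not share one direction. Of 16 tested genes, Tg-RKIP against FVB had 5 higher and 7 lower in TMM-normalized counts, beside 36.8% and 37.1% of all genes. With scaling to library size, 10 were higher and 4 lower. Bdkrb2, the bradykinin B2 receptor, was higher with a log2 fold change of 1.70, as were Adora1, the adenosine A1 receptor (1.06), and Ptger3, a prostaglandin E2 receptor (0.90), while Chrm2, the muscarinic receptor of vagal slowing, was lower (-0.91). These directions held under both scalings. In the Tg-GRK2-labelled libraries against FVB, 2 were higher and 4 lower, with 0.73 for Ptger3 and -0.28 for Adora1.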
